A study of Rattus norvegicus with 6 samples.

Results

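9 genes that myelinating oligodendrocytes are known for were followed in the rat hippocampus: Cldn11, Cnp, Myrf, Ermn, Mbp, Mog, Mag, Mobp and Mal. A probe belonged to the set when its accession belongs to 1 of these genes, which gave 12 probes for the 9 genes, out of 15162 genes with a symbol on the array. All 12 probes were well above background on all 6 arrays, so no member was lost to the filter on dim probes, which left 11965 named genes. Hippocampal tissue came from adult male Sprague Dawley rats (SD in the labels). The AD group (3 arrays, 1 per tissue sample) had been given Aβ1-42 oligomers by intracerebroventricular injection, and the Sham group (3 arrays) had been given the vehicle into the lateral ventricles. AD here therefore names an injected Sprague Dawley rat and not a transgenic line, and the time between injection and dissection is not given in the sources used here. No label ties a sample to an animal, so p-values speak only of the spread among these 6 samples, which may in part be technical.

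Oligodendrocytes wrap axons in myelin, a stack of membrane that is compacted by a few very abundant proteins and speeds conduction. In the hippocampus they are densest in the fibre tracts that border it and are spread thinly among the neurons. Their differentiation is driven by transcription factors of the SOX and OLIG families and completed by Myrf, which binds upstream of many myelin genes. In bulk tissue, fewer or more oligodendrocytes and less or more RNA per oligodendrocyte cannot be told apart.

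The DNA just upstream of the members is shown because these genes are a textbook case of a shared set of regulators. RefSeq upstream sequences of the assembly GRCr8 were matched by symbol for 6 of the 9 genes, in 7 windows of 250 bases that end at the base before the transcript start given in the table, which holds 2 starts for Mbp. The starts given for Mag and Mobp and the downstream start of Mbp lie inside the annotated extent of the gene, so these windows are upstream of that start only and reach into the gene. Ermn, Mog and Myrf were not matched. Below are the windows of 4 members with a probe that rose and that of the downstream Mbp start, each from 5′ to 3′ on the strand of the gene. Capitals mark matches on either strand to the MYRF core CTGGNAC, the SOX site ACAANG and the GC box GGGCGG, and no 2 matches overlapped.
Cldn11 upstream, chr2:114149540-114149789, minus strand: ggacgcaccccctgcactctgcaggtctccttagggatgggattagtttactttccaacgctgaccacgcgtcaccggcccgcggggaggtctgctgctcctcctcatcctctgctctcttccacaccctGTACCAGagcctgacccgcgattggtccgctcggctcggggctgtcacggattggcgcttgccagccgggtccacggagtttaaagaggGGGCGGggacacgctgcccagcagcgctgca
Cnp upstream, chr10:86011254-86011503, plus strand: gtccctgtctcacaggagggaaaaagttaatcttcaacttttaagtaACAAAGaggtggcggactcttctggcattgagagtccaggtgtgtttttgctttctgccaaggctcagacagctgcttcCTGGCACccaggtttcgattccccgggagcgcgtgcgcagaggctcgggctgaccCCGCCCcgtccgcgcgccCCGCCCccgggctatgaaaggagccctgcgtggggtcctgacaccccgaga
Mag upstream, chr1:95291045-95291294, minus strand: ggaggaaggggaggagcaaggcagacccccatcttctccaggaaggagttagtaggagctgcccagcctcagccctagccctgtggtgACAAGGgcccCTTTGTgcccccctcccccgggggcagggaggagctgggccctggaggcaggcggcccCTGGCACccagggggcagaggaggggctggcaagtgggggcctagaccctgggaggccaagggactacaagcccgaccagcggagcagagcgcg
Mobp upstream, chr8:128746982-128747231, plus strand: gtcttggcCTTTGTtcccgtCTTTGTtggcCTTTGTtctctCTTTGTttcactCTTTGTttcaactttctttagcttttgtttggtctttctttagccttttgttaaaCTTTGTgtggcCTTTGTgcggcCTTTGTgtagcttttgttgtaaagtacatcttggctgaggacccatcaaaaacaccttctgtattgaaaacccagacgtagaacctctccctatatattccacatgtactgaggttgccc
Mbp upstream, chr18:78209995-78210244, plus strand: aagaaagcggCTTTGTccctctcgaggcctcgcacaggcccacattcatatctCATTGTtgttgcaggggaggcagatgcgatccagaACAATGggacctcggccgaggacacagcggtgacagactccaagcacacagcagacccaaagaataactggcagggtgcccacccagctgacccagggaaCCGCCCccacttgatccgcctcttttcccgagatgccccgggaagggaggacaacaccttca
The MYRF core was found in 5 of the 7 windows and in 14.8% of all 33469 windows of the same length in the table. In the windows of Cldn11, Cnp and Mag its first base lay 120, 124 and 94 bases before the start, and it was found neither in the Mobp window nor in that of the downstream Mbp start. The window of the upstream Mbp start, which is not printed, held it 236 bases before the start. The SOX site was found in 4 of 7 windows, against 36.9% of all windows, with 8 matches in the Mobp window and 3 in that of the downstream Mbp start. The GC box was found in 5 of 7 windows, against 30.5% of all, and the TATA box TATAAA in 0 of 7, against 12.9% of all. G and C made up 41.6% of the Mobp window and 58.8% to 70% of the others, against a median of 51.2% over all windows. The shares above do not allow for this. These matches describe letters and are not evidence of binding, and their relation to the changes was not tested.

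Levels are given as the log2 of the processed signal minus the 75th percentile of that array, so 0 is the 75th percentile and 1 unit is a doubling. Levels of different probes depend on the probe and are not compared. Probes were compared between groups with limma, whose p-values were adjusted with the Benjamini-Hochberg method over all 22820 tested probes at a threshold of 0.05. Over all tested probes, 951 were higher in AD (4.17%) and 1927 were lower (8.44%), with a median log2 change of -0.01. That split depends on scaling, with 1428 higher and 1245 lower where the 75th percentile was taken over detected probes only, and 311 higher and 1463 lower after normexp background correction.

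By the main probe of each gene, which is its probe with the highest mean level, 5 of the 9 genes were higher in AD than in Sham and 0 were lower, against the 4.17% and 8.44% of all probes. The members were chosen with earlier results of these data known, so the shares of all probes are no measure of how unusual these counts are. The 5 were Cldn11, Cnp, Myrf, Ermn and Mobp, and their folds lay between 1.45 and 1.57. The median log2 change of the 9 genes was 0.53, 8 of the 9 changes were above 0, and in 6 genes all 3 AD values lay above all 3 Sham values, which held for 15.6% of all tested probes (the opposite order held for 23.4%). Counted by probe, 6 of 12 were higher and 1 was lower. Mbp was the only member below 0, on both of its probes.

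**Figure D1:**
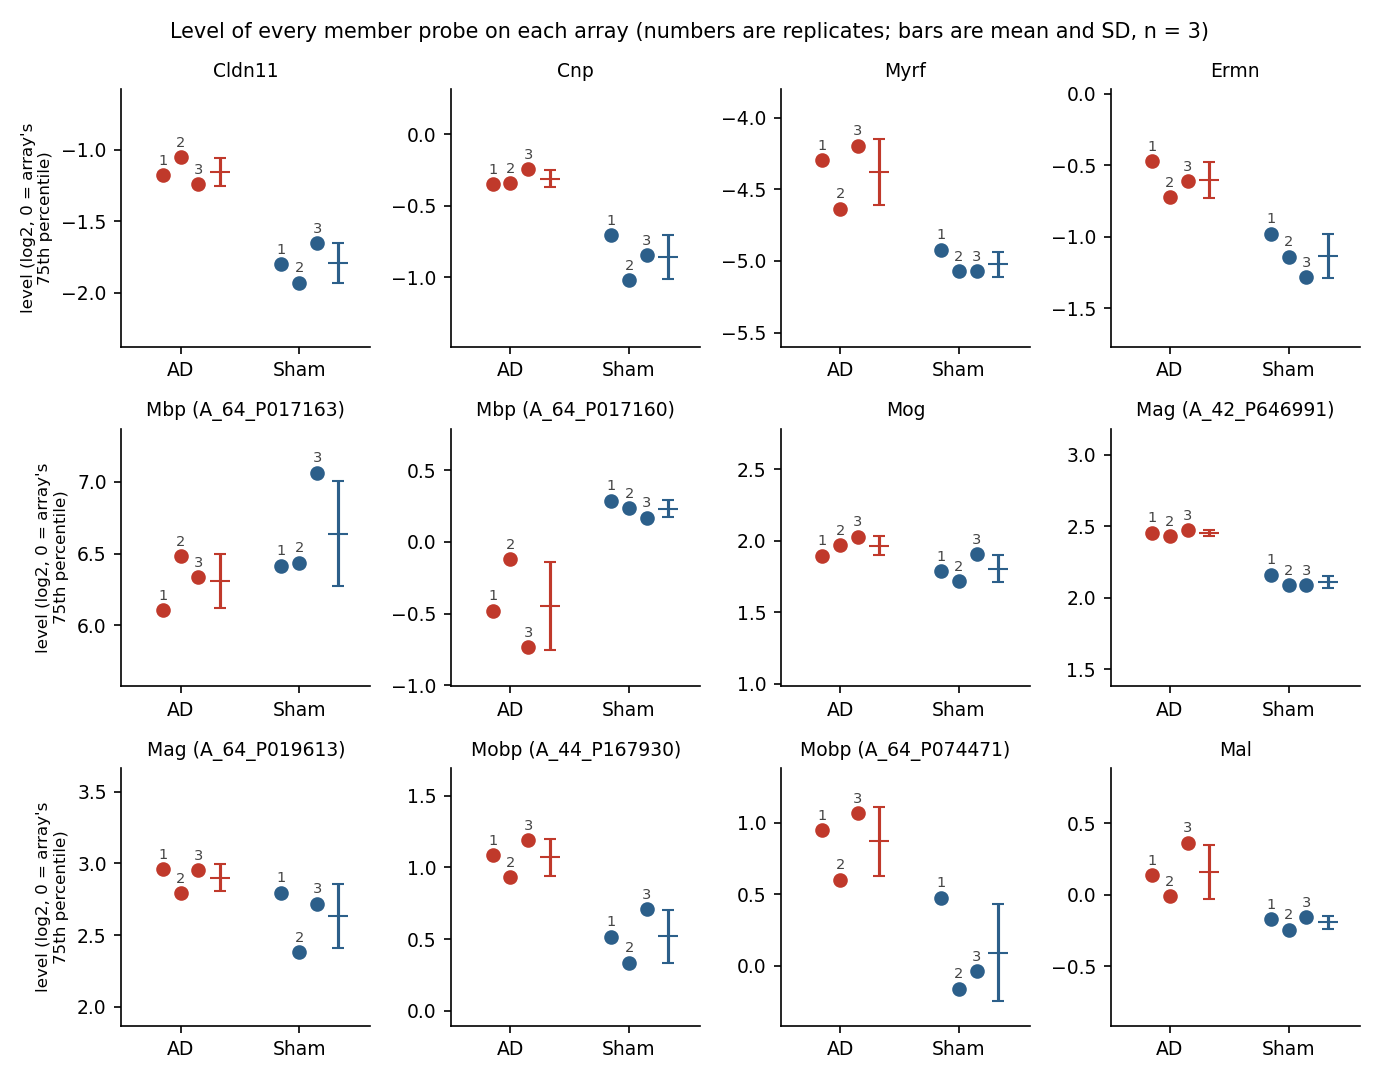
Level of each of the 12 member probes (log2, 0 is the array's 75th percentile) on the 3 AD arrays (left, red) and the 3 Sham arrays (right, blue), with replicate numbers above the points and the mean and SD beside them (n = 3 per group). Every panel spans the same range of log2 units. In 8 panels the AD points all lie above the Sham points, in the panel of Mbp probe A_64_P017160 they all lie below, and in 3 panels the groups overlap.

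Cldn11 encodes claudin 11, the tight junction protein that seals the outer turns of central myelin. Its probe read -1.18, -1.05 and -1.24 on the AD arrays (replicates 1 to 3 in this order, as for every gene) and -1.80, -1.93 and -1.65 on the Sham arrays. All AD values lay above all Sham values, with a gap of 0.41 between the groups and an SD of 0.10 (AD) and 0.14 (Sham). The log2 change was 0.64 ± 0.11 (SE, n = 3 each), or 1.55-fold, with an adjusted p of 0.0251 by limma.

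Cnp encodes the phosphodiesterase CNPase, which keeps cytoplasmic channels open in myelin and is expressed early in myelination. Its probe read -0.35, -0.34 and -0.25 in AD and -0.71, -1.02 and -0.85 in Sham. The AD values lay close together (SD 0.06, against 0.16 in Sham) and all were higher than the highest Sham value. The log2 change was 0.55 ± 0.11 (1.46-fold, adjusted p = 0.0318).

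Ermn encodes ermin, an actin-binding protein of the late myelinating cell. Levels were -0.47, -0.72 and -0.61 in AD, against -0.98, -1.14 and -1.28 in Sham. Again the groups did not overlap, with AD replicate 2 nearest to Sham, and the log2 change was 0.53 ± 0.12 (1.45-fold, adjusted p = 0.0403).

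Myrf is the transcription factor that turns on the late myelin programme. Its probe was the dimmest of the 12, with processed signals of 45.5, 32.0 and 50.8 in AD and 24.8, 22.4 and 12.8 in Sham. Scaled levels were -4.30, -4.64 and -4.20 in AD and -4.92, -5.07 and -5.07 in Sham, a log2 change of 0.65 ± 0.14 (1.57-fold, adjusted p = 0.0361). The groups did not overlap, but the direction depended on the background correction: after normexp, where the median of all probes moved to -0.15, the log2 change of Myrf was -0.07 (adjusted p = 0.781).

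Mobp encodes a small basic protein of compact central myelin and was measured by 2 probes. The main probe (A_44_P167930) read 1.09, 0.93 and 1.19 in AD and 0.52, 0.33 and 0.71 in Sham, a log2 change of 0.55 ± 0.13 (1.47-fold, adjusted p = 0.0451). The other probe (A_64_P074471) read 0.95, 0.60 and 1.07 in AD and 0.48, -0.16 and -0.04 in Sham. Both probes separated the groups, with AD replicate 2 lowest in AD on both. The second probe had the larger change, 0.78 ± 0.21, and the larger spread, so that its adjusted p was 0.0592.

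Mag encodes the adhesion molecule that holds the innermost myelin membrane to the axon. Probe A_42_P646991, which is printed 10 times on each array, read 2.45, 2.43 and 2.47 in AD and 2.16, 2.09 and 2.09 in Sham. This was the smallest spread among the 12 probes in either group (SD 0.02 in AD and 0.04 in Sham), and a change of 0.34 ± 0.08 (1.27-fold) had an adjusted p of 0.0423. The spots of that probe varied within an array with an SD of 0.04 to 0.10. The other Mag probe (A_64_P019613), which has the higher signal, read 2.96, 2.79 and 2.95 in AD and 2.80, 2.38 and 2.72 in Sham. On that probe AD replicate 2 and Sham replicate 1 met, and the change of 0.27 ± 0.13 did not pass the test (adjusted p = 0.227). The difference between the Mag probes within an array overlapped between the groups.

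Mal encodes a membrane raft protein that sorts lipids and proteins to myelin. Levels were 0.13, -0.01 and 0.36 in AD and -0.17, -0.24 and -0.16 in Sham. The groups did not overlap, with a gap of 0.15, but the change of 0.35 ± 0.12 (1.28-fold) did not pass the test (adjusted p = 0.0992). Mog encodes a glycoprotein of the outermost myelin surface. Its levels were 1.90, 1.97 and 2.03 in AD and 1.79, 1.72 and 1.91 in Sham, where the lowest AD array lay just below the highest Sham array. The change was 0.16 ± 0.09 (adjusted p = 0.285), with a 95% confidence interval of -0.06 to 0.38.

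Mbp encodes myelin basic protein, which zips together the cytoplasmic faces of the myelin membrane, and its 2 probes are annotated to different Mbp transcripts. The main probe (A_64_P017163) read 6.11, 6.48 and 6.33 in AD and 6.42, 6.44 and 7.07 in Sham. The groups overlapped, Sham replicate 3 stood highest, and the change of -0.33 ± 0.21 did not pass the test (adjusted p = 0.327, 95% confidence interval -0.84 to 0.17). This probe ranked between 20 and 47 from the brightest on the arrays, with no spot marked as saturated. Before scaling it read 61561, 71153 and 75148 in AD and 64257, 65403 and 57506 in Sham, while the 75th percentile that the levels are scaled by was 894, 796 and 932 in AD and 753, 755 and 429 in Sham. The high scaled level on Sham replicate 3 thus went with the lowest unscaled signal and the lowest percentile. Under quantile normalization the change was -0.09.

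The other Mbp probe (A_64_P017160) was of ordinary brightness and read -0.48, -0.12 and -0.74 in AD, against 0.29, 0.24 and 0.17 in Sham. All AD values were below 0 and all Sham values above it, and the log2 change of -0.68 ± 0.16 passed the test (adjusted p = 0.0485), by the smallest margin of the 7 probes called. AD replicate 2 was the nearest to Sham. The main Mbp probe (A_64_P017163), which did not pass the test, was also read against the main probes of the other members within the same array. This log2 ratio does not depend on a factor shared by all probes of an array. It can change under quantile normalization, which is not such a factor. For 7 of 8 members the ratio of Mbp to the member was lower on every AD array than on every Sham array, which held against 28.5% of all other tested probes. The ratio of Mbp to Mog, for example, was 4.21, 4.51 and 4.31 in AD and 4.63, 4.72 and 5.16 in Sham. These ratios show unequal change of signal and not which of the pair changed, and all of them share the same Mbp values. A difference in how very bright and ordinary probes follow an array's brightness would also enter these ratios and was not tested.

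**Figure D2:**
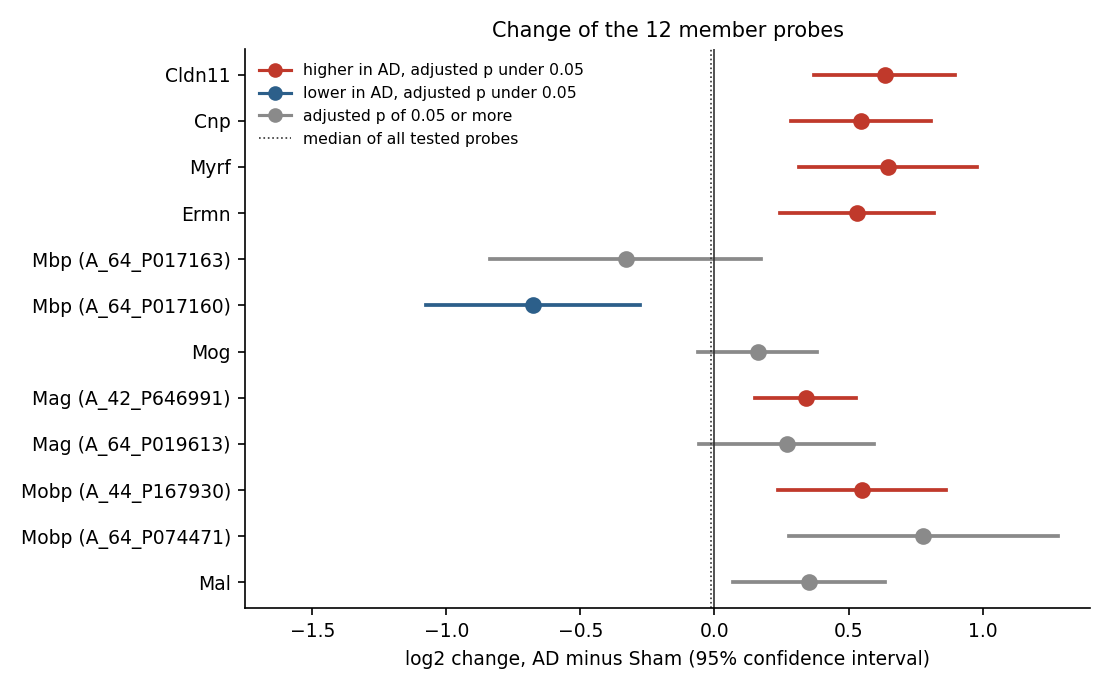
Log2 change (AD minus Sham) of the 12 member probes with 95% confidence intervals from limma, coloured by call, with the median of all tested probes (-0.01) as a dotted line. The 6 intervals in red lie above 0, the interval of Mbp probe A_64_P017160 in blue lies below 0, and the 5 grey probes include Mobp probe A_64_P074471, whose estimate of 0.78 is the largest of the 12.

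Seen array by array, most members lay above their Sham mean in AD. The median distance from that mean over the 9 genes was 0.51, 0.39 and 0.55 on the AD arrays and 0.02, -0.14 and 0.09 on the Sham arrays. In all, 8 of the 9 genes were above their Sham mean on every AD array, the exception being Mbp. On Sham replicate 2 no gene was above its Sham mean, and on Sham replicate 3 there were 7. The genes whose pattern over the 6 arrays was most like the mean pattern of the members, among 11071 genes compared by root mean square difference, were Cntn4 (0.02), Nos3 (0.03), Efhd2 (0.03), Thtpa (0.03) and Apc2 (0.03). By the same measure Mal (0.08) was the member nearest to that mean and Mbp (0.41) the farthest.

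The scan could not be separated from the groups. The AD arrays were scanned in 1 run, Sham replicates 1 and 2 in another run on the same day, and Sham replicate 3 alone on another day, so each run held 1 group and run and group cannot be told apart. With scan run as a random block (estimated correlation 0.49), 0 of all probes and 0 of 9 members passed the threshold, with 3671 probes at an unadjusted p under 0.05 and adjusted p-values of 0.198 or more for the members. Within the first scan day, that is without Sham replicate 3, 4 of the 9 members were higher, and Myrf was no longer called.

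The calls also rested on having all 3 arrays of AD and both same-day Sham arrays. Leaving out any 1 of AD replicates 1, 2 and 3 or Sham replicates 1 and 2 left 0 members called by limma and between 0 and 2 of all probes, with 4870 to 6454 probes at an unadjusted p under 0.05. The direction held under these choices: apart from Myrf after normexp, each probe kept its sign in all 18 alternatives, which were positive for the 10 probes of members other than Mbp and negative for both Mbp probes. The other filters, the replicate block and the methods' t-test gave the reported estimates again, so the 18 are not separate checks. Scan day as a block gave the estimates without Sham replicate 3, and the authors' value table nearly those of quantile normalization. Only Cldn11 passed the threshold after normexp correction.

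**Figure D3:**
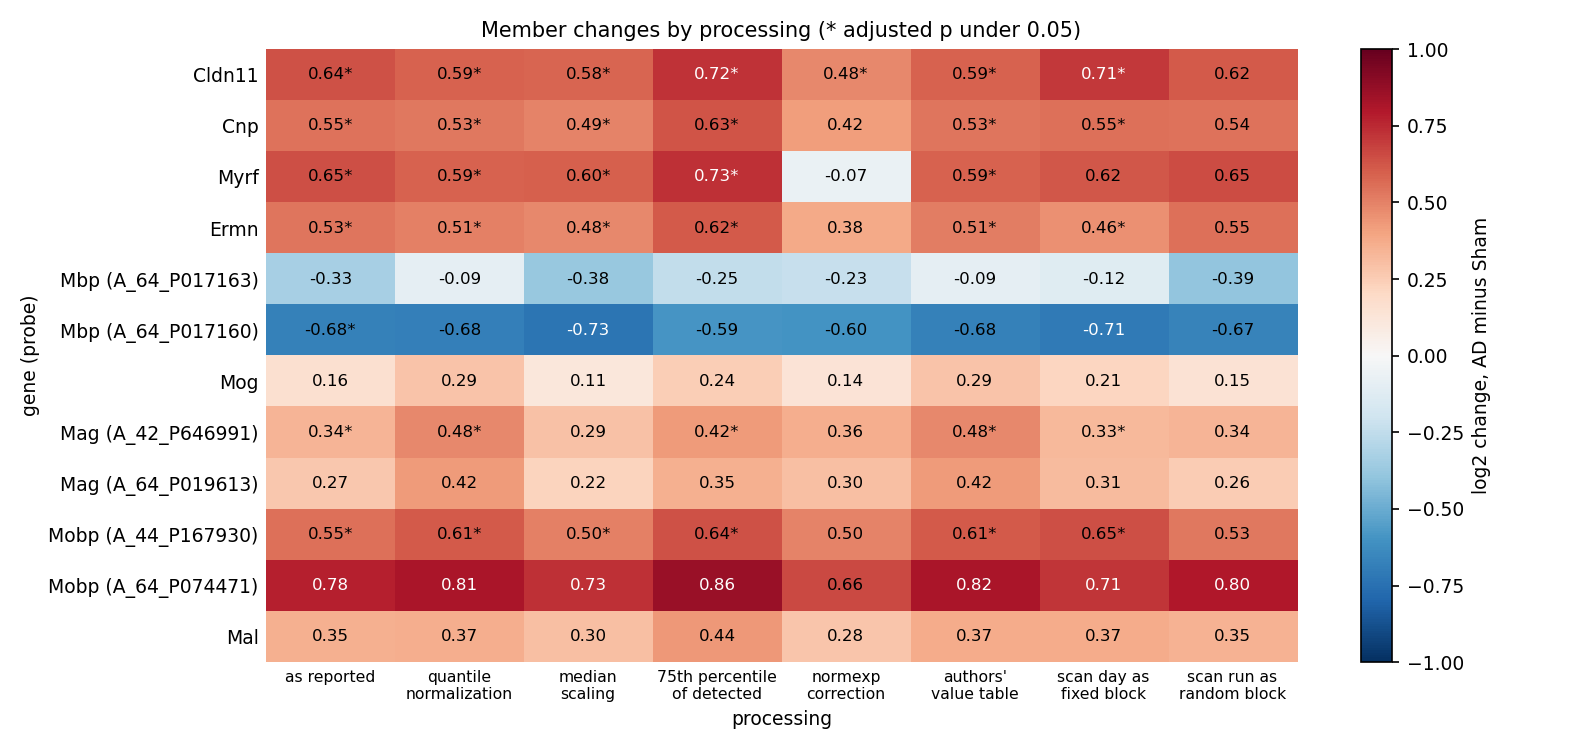
Log2 change (AD minus Sham) of each member probe (down) under the processing as reported and 7 alternatives (across), with colour and number giving the change and an asterisk an adjusted p under 0.05. Signs agree along every line except Myrf, which reads -0.07 after normexp correction, and the column with scan run as a random block holds no asterisk.

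Other genes of the oligodendrocyte were taken from 6 lists by role, which were also chosen with earlier results of these data known. Of 70 tested genes on these lists, 13 were higher in AD and 4 were lower by their main probe (4.10% and 10.9% of all named genes), with a median log2 change of 0.25, against -0.05 over all named genes and 0.53 over the members. The difference between the lists and the members was not tested. After normexp 9 list genes were higher and 1 was lower, and 0 were called with scan run as a random block or without any 1 of AD replicates 1, 2 and 3 or Sham replicates 1 and 2.

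Among 11 myelin membrane proteins 1 was higher and 0 were lower, with a median of 0.21. Tmem88b, a membrane protein, was the higher one (0.74 ± 0.15, adjusted p = 0.0323), and its other probe gave 0.62. Among 7 transcription factors 1 was higher: Olig1, which mice need for normal oligodendrocyte maturation, read 2.61, 2.64 and 2.59 in AD and 2.10, 1.87 and 1.85 in Sham, a change of 0.67 ± 0.10 (adjusted p = 0.0211). The median of the transcription factors was 0.13.

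The lipid genes split. Of 14 genes of myelin lipid synthesis 1 was higher and 2 were lower, with a median of 0.10. Elovl7, which elongates long fatty acids, was higher by 1.22 ± 0.25 (adjusted p = 0.0330), a change that shrank to 0.30 after normexp. Hmgcs1 and Sqle, enzymes of cholesterol synthesis that neurons and astrocytes express too, were lower, by -0.62 ± 0.14 (adjusted p = 0.0428) and -0.55 ± 0.11 (adjusted p = 0.0333).

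At the paranode, node and gap junction, where myelin loops meet the axon and other glia, 3 of 11 genes were higher and 0 were lower, with a median of 0.29. Nfasc, the adhesion protein of the node and paranode, was higher by 0.67 ± 0.09 (adjusted p = 0.0197) on its main probe but by 0.22 and 0.07 on its other probes, neither of which passed the test. The junction protein Jam3 was higher by 0.43 ± 0.10 (adjusted p = 0.0406).

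Of 14 cytoskeletal and cytoplasmic genes 4 were higher and 2 were lower, with a median of 0.31. Of the genes called, those with the largest changes were Ppp1r14a, an inhibitor of myosin phosphatase (0.74 ± 0.10, adjusted p = 0.0193), Plekhb1 (0.73 ± 0.13, adjusted p = 0.0257) and Car2, carbonic anhydrase of oligodendrocytes and other glia (0.55 ± 0.10, adjusted p = 0.0261). The 2 lower genes, named after their values were seen, were Qdpr (-0.40 ± 0.09, adjusted p = 0.0463) and Tppp (-0.37 ± 0.09, adjusted p = 0.0438). On both, all AD values lay below all Sham values. Of 13 receptors and secreted proteins 3 were higher and 0 were lower, with a median of 0.32. These were Gpr37, a receptor that restrains myelination in mice (0.84 ± 0.12, adjusted p = 0.0208), the lysophosphatidic acid receptor Lpar1 (0.72 ± 0.09, adjusted p = 0.0193) and the protease Klk6 (0.46 ± 0.10, adjusted p = 0.0431). Enpp2, named after its values were seen, read 2.83, 1.13 and 3.56 in AD and 0.13, 0.13 and 0.55 in Sham. Enpp2 is made by choroid plexus as well. The summed level of 12 choroid plexus markers was 151, 83.4 and 155 in AD and 28.7, 59.7 and 105 in Sham. These sums overlapped between the groups. Ttr, the brightest of the 12, weighed most in them. Its levels overlapped too, with 7.01, 6.32 and 6.86 in AD and 4.74, 5.83 and 6.66 in Sham. Of the 12 markers 0 were called, and 5 had all AD values above all Sham values. Their median change was 2.14.

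**Figure D4:**
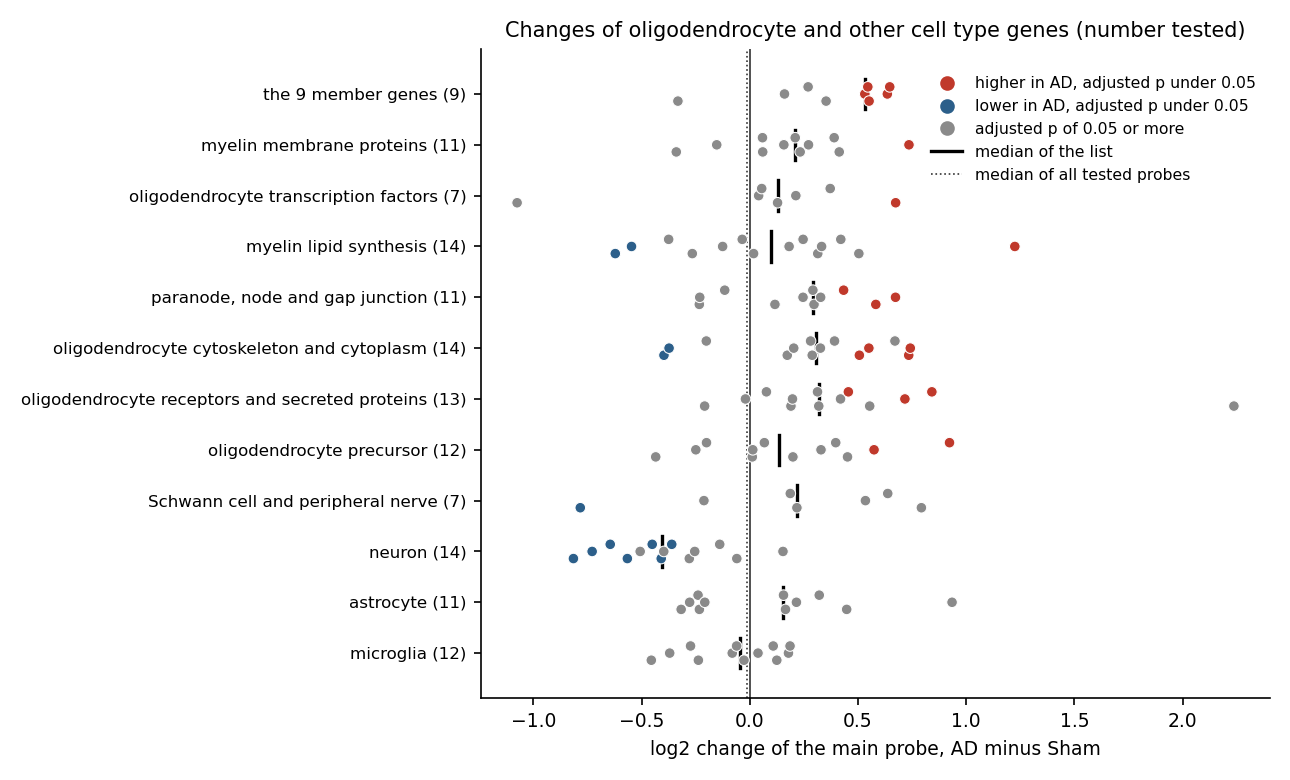
Log2 change (AD minus Sham) of the main probe of each tested gene in the 9-member set, the 6 oligodendrocyte lists and 5 lists of other cell type markers, with the number tested beside each name, black bars for list medians and colours for calls. The members' median (0.53) lies to the right of the medians of the other oligodendrocyte lists (0.10 to 0.32), and that of the neuronal markers (-0.40) to the left of 0.

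Markers of other cells were read beside the members, with 4.10% of all named genes higher and 10.9% lower by main probe. Of 14 neuronal markers 0 were higher and 7 were lower, led by Gad1 (-0.81 ± 0.09, adjusted p = 0.0183), Elavl4 (-0.73 ± 0.10, adjusted p = 0.0205) and Syt1 (-0.64 ± 0.08, adjusted p = 0.0189). Their summed linear level, in units of the array's 75th percentile, was 115 to 124 in AD and 149.6 to 172 in Sham. Their median change was -0.40, and their part in the members' result was not tested. Of 12 markers of oligodendrocyte precursors, 2 were higher, Bmp4 (0.92 ± 0.16, adjusted p = 0.0258) and C1ql1 (0.57 ± 0.09, adjusted p = 0.0213), while the summed level was 23.8 to 25.0 in AD and 22.1 to 25.5 in Sham, with a median change of 0.13.

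Some of the members are also expressed in peripheral nerve. Of 7 tested Schwann cell markers 0 were higher and 1 was lower, Gldn (-0.78 ± 0.15, adjusted p = 0.0351), whose change rests on 2 AD arrays because its spot on AD replicate 1 was left out as an outlier, while Prx reached signal well above background on 0 of 6 arrays. The summed level of this list was 4.49 to 4.94 in AD and 3.61 to 4.94 in Sham. By main probe none of 11 astrocyte or 12 microglial markers was called, with summed levels of 218 to 256 and 29.2 to 34.4 in AD, against 239 to 284 and 35.2 to 36.2 in Sham. Other probes of 2 astrocyte markers, named after their values were seen, did pass: S100b was higher by 1.58 (adjusted p = 0.0193) and Slc1a3 lower by -0.44 (adjusted p = 0.0284). Markers of tissue that a dissection can bring along were read too, against the 4.10% higher and 10.9% lower of all named genes. For skeletal muscle 2 of 14 genes were higher (summed level 11.5 to 18.0 in AD and 10.4 to 10.8 in Sham). For striatum and thalamus 2 of 10 genes were higher and 1 was lower (5.19 to 5.97 in AD and 6.79 to 7.24 in Sham). In a list of 8 blood and neutrophil genes 2 were lower, S100a9 (-1.71 ± 0.37, adjusted p = 0.0378) and S100a8 (-1.65 ± 0.25, adjusted p = 0.0217). The study also listed both as lower in AD. The summed level of this list was 6.65 to 13.4 in AD and 12.1 to 68.5 in Sham. The haemoglobin probes, named after their values were seen, disagreed: the main probes of Hbb and Hba-a1 changed by -2.59 and -1.25, neither passing the test, and their other probes by 1.26 (adjusted p = 0.449) and 1.65 (adjusted p = 0.0381). Of 14 endothelial and pericyte genes 3 were higher (15.2 to 15.9 in AD and 14.2 to 15.6 in Sham), and of 9 ependymal genes 0 were called (3.11 to 6.36 in AD and 2.89 to 3.64 in Sham). All 12 hippocampal subfield markers were tested and 2 of them, Fibcd1 and Spink8, were lower. The summed level of this list was 40.5 to 46.2 in AD and 51.8 to 54.3 in Sham, while 6 of the 12 changes were above 0. The part of these markers in the members' result was not tested.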

How the data were processed

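Total RNA of each hippocampal tissue sample was amplified, labelled with Cy3 and hybridised to a single-colour Agilent rat array. The deposited scanner output, made by the authors with Agilent Feature Extraction 11.0.1.1, gives a background-subtracted intensity per spot on a linear scale, with flags for outlier, saturated and dim spots. The authors also deposited a table of log2 values, whose scaling is not stated, and which was used as an alternative. Its columns for AD replicates 2 and 3 match the scanner output of replicates 3 and 2, so replicate numbers here follow the scanner output, and group comparisons are unaffected.

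Control spots and outlier spots (400 to 559 per array) were left out, spots of a probe were averaged, and log2 intensity minus the array's 75th percentile was used. Probes well above background on at least 3 of 6 arrays were tested in R 4.3.3 with limma 3.58.1 (lmFit, then eBayes), two-sided, without covariates. The number of arrays limits the precision. Arrays correlated at 0.988 to 0.994 in AD and 0.979 to 0.993 in Sham, and at 0.976 to 0.987 across groups. Symbols came from unversioned RefSeq accessions (assembly GRCr8), which named 17997 of 30367 probes (59.3%). The array was designed on another build, so no probe positions are given, and the coordinates printed are those of the upstream windows in GRCr8. All members with every probe are named, and of each list the 3 called genes with the largest change, or the 2 largest where none was called, were eligible to be named, though some are not reported here. The members and lists were chosen with earlier results of these data known. The fit was tested on simulated data.

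Alternatives were other scalings, the value table, normexp correction (offset 50, on the median spot signal, since the planned mean signal column was not used here), other filters, scan run (duplicateCorrelation, statmod 1.5.0) and scan day as blocks, replicate number as a block, array weights, the methods' t-test, other probes of a gene and leaving out each array. A slide block was not run, because the headers used here number only positions on a slide.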

Additional observations from a re-analysis of the deposited data

How the results depend on the processing

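The number of member genes called higher was 5, and it was again 5 under quantile normalization, median scaling, the 75th percentile over detected probes, the authors' value table and the requirement of signal well above background on all 6 arrays. It was 7 with array weights (3749 probes higher and 4616 lower over the array), 1 after normexp (311 higher) and 0 without a filter (97 higher, 253 lower). The methods' t-test gave 1 member gene and 2 member probes after Benjamini-Hochberg (579 higher, 1274 lower), and 0 members at the study's threshold of fold change (2 or more) and unadjusted p (175 higher, 154 lower). Scan run as a random block gave 0 calls of any kind. With scan day as a fixed block 4 member genes were higher (1990 probes higher, 2471 lower), and with the 75th percentile over detected probes 1428 were higher and 1245 lower. Leaving out each array gave 0 to 4 member genes and 0 to 5 member probes higher, 0 member probes lower, and 0 to 1990 probes higher and 0 to 2471 lower over the array, the highest without Sham replicate 3. By probe, 6 members were higher as reported, 9 with array weights and 1 after normexp. The median log2 change of the member genes was 0.53 as reported, 0.30 after normexp, and between 0.46 and 0.62 in the others.

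The 1 lower call, on Mbp probe A_64_P017160, held in 2 of 18 alternatives (array weights and the stricter background filter) and was 0 in the rest. Choosing for each gene the probe with the largest change made Mbp a lower gene, 1 in all. Myrf reversed after normexp (-0.069). Mobp probe A_64_P074471 (2 alternatives), Mag probe A_64_P019613 and Mal (1 each) passed the threshold in some alternatives. The cause of these differences was not tested.

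Replicate numbers are shared between the groups, and whether they pair the arrays is not known. Same-numbered arrays had correlations of their deviations from the group means of 0.03, 0.07 and 0.14. Arrays with different numbers had correlations of -0.12 to 0.06. With 3 arrays per group, and AD replicates 2 and 3 numbered differently in the value table, these values cannot decide it. The fit with the replicate block called 0 probes higher and 0 lower, with 6492 at an unadjusted p under 0.05, and the median change of the members was again 0.53.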
